A study of Mus musculus with 6 samples.

Results

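Notch receptors, their ligands, their glycosyltransferase Lfng and their target genes were followed as 10 named mouse genes: Notch1, Notch2, Notch3, Dlk1, Dll1, Jag1, Jag2, Lfng, Hes1 and Hey1. The 10 genes were chosen by name, and every array probe that the platform annotation gives to one of them was taken. These were 10 of 17711 named genes on the array and 12 of its 46632 probes, with 2 probes each for Dlk1 and Lfng and 1 for each other gene. The tissue was prospective lens, cut by laser from frozen sections of single mouse embryos at embryonic day E10.25 (mixed background of FVB and 129). In 3 wild-type embryos the lens placode was taken, and in 3 Pax6-/- embryos the surface ectoderm, so the genotypes also differ in the tissue name given. Both lens areas of 1 embryo went onto 1 array, after amplification of 15 ng of RNA. The allele behind Pax6-/- is not described in the labels. Whether fewer cells of a type or less RNA per cell lies behind a lower value cannot be told apart in tissue of this kind.

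Notch signalling passes between touching cells. A ligand of the Delta or Jagged family on one cell binds a Notch receptor on its neighbour, proteases release the receptor's intracellular domain, and this domain joins the DNA-binding protein Rbpj to switch on genes such as Hes1 and Hey1, which encode bHLH repressors. Lfng, a fringe enzyme of the Golgi, adds sugars to Notch receptors and so changes which ligands they respond to. Dlk1 resembles the Delta ligands but lacks the DSL domain through which they bind Notch, and it is an imprinted gene expressed from the paternal allele. In the mouse lens, Jag1 and Notch signalling are known for keeping epithelial progenitors dividing and for fibre cell growth.

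Arrays were of similar depth, and markers of other tissues differed between the genotypes. On an array 16335 to 18736 probes were above background, meaning a deposited detection p under 0.05, and precision is limited by having 3 arrays in each genotype. Of the wild-type arrays, that of embryo 2 had the lowest mean correlation with the Pax6-/- arrays, 0.753 against 0.801 and 0.819. All 3 probes of Pax6, the targeted gene, read lower on every Pax6-/- array than on every wild-type array. Of all probes tested, 15.0% were without overlap between the genotypes in either direction. The log2 changes of the Pax6 probes, -0.53, -0.83 and -0.996, did not pass (limma adjusted p 0.638, 0.376 and 0.380). A probe outside the altered part of the allele would check nothing about the genotype. Of 10 lens placode markers, Pax6 among them, 9 or 10 were above background in each wild-type embryo, and between 4 and 6 in each Pax6-/- embryo. The list was chosen with earlier results of these data known, so the lower counts do not check which tissue was cut. Of 11 surface ectoderm markers, 9 were above background on each wild-type array and 10 on each Pax6-/- array, and Krt14 was on none.

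**Figure D1:**
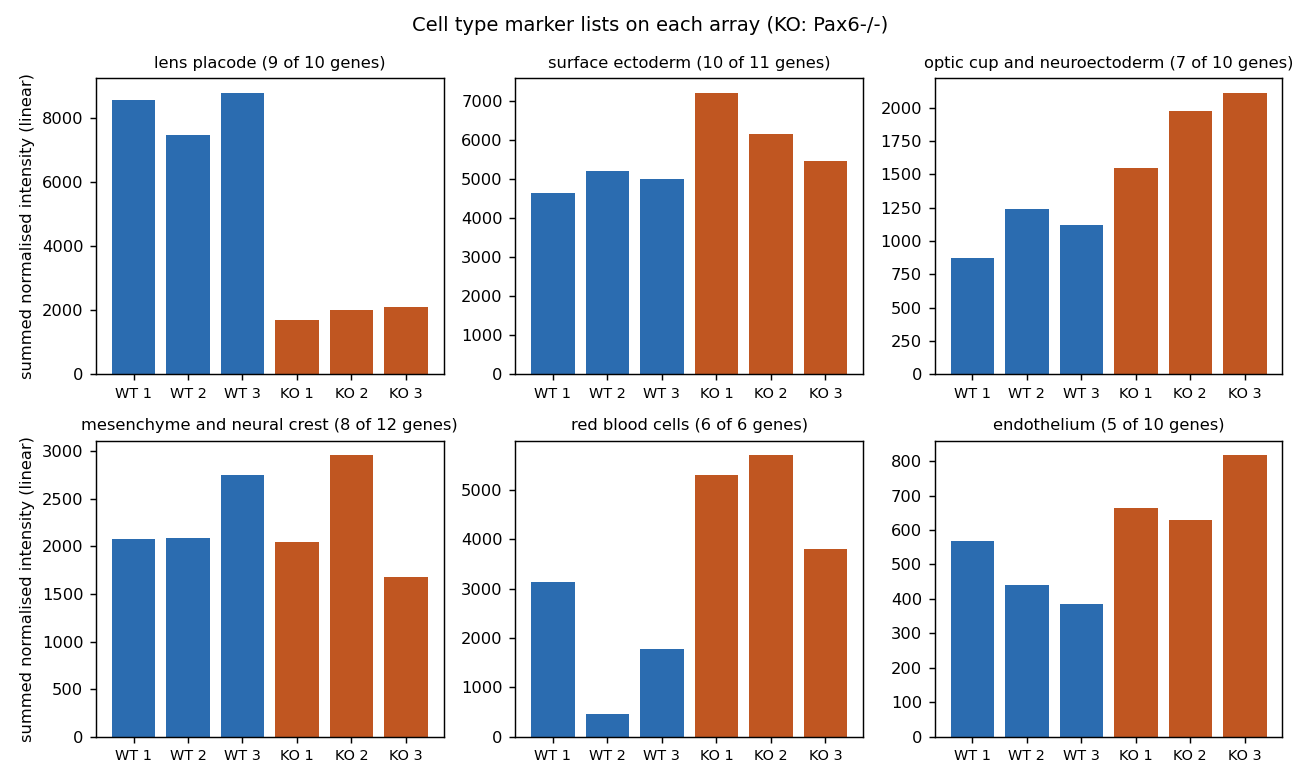
Summed normalised intensity (linear scale, vertical axis) of the tested genes of 6 marker lists on each of the 6 arrays, blue for wild type and orange for Pax6-/-. Lens placode markers sum to 7494 to 8809 on the wild-type arrays and to 1699 to 2113 on the Pax6-/- arrays, and red blood cell markers to 458 to 3133 and 3790 to 5697.

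None of the 8 members that could be tested passed in either direction. Levels in the following are normalised log2 intensities, and changes are Pax6-/- minus wild type with the standard error (SE) of limma's fit. A probe was tested where it was above background on at least 3 of the 6 arrays, which held for 9 of the 12 probes. These stood for 8 genes, and a probe that passes this filter through 1 genotype only is favoured to differ. At an adjusted p of 0.05 limma called 0 of the 9 probes, against 0.0225% of the 17751 probes tested. With 1 probe per gene it called 0 of the 8 genes, against 0.0869% of 13805 genes or unnamed probes (0.0290% higher and 0.0580% lower in Pax6-/-). At an unadjusted p of 0.05 there were 2 of the 9 probes, against 8.97% of all probes. They belonged to 2 of the 8 genes, Dlk1 and Jag1, where 8.99% of all genes reached it. The genotypes did not overlap on 1 of the 9 probes, and on 15.0% of all probes tested. Of the 9 probes, 4 were above background on all 6 arrays, as were 60.4% of all probes tested.

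**Figure D2:**
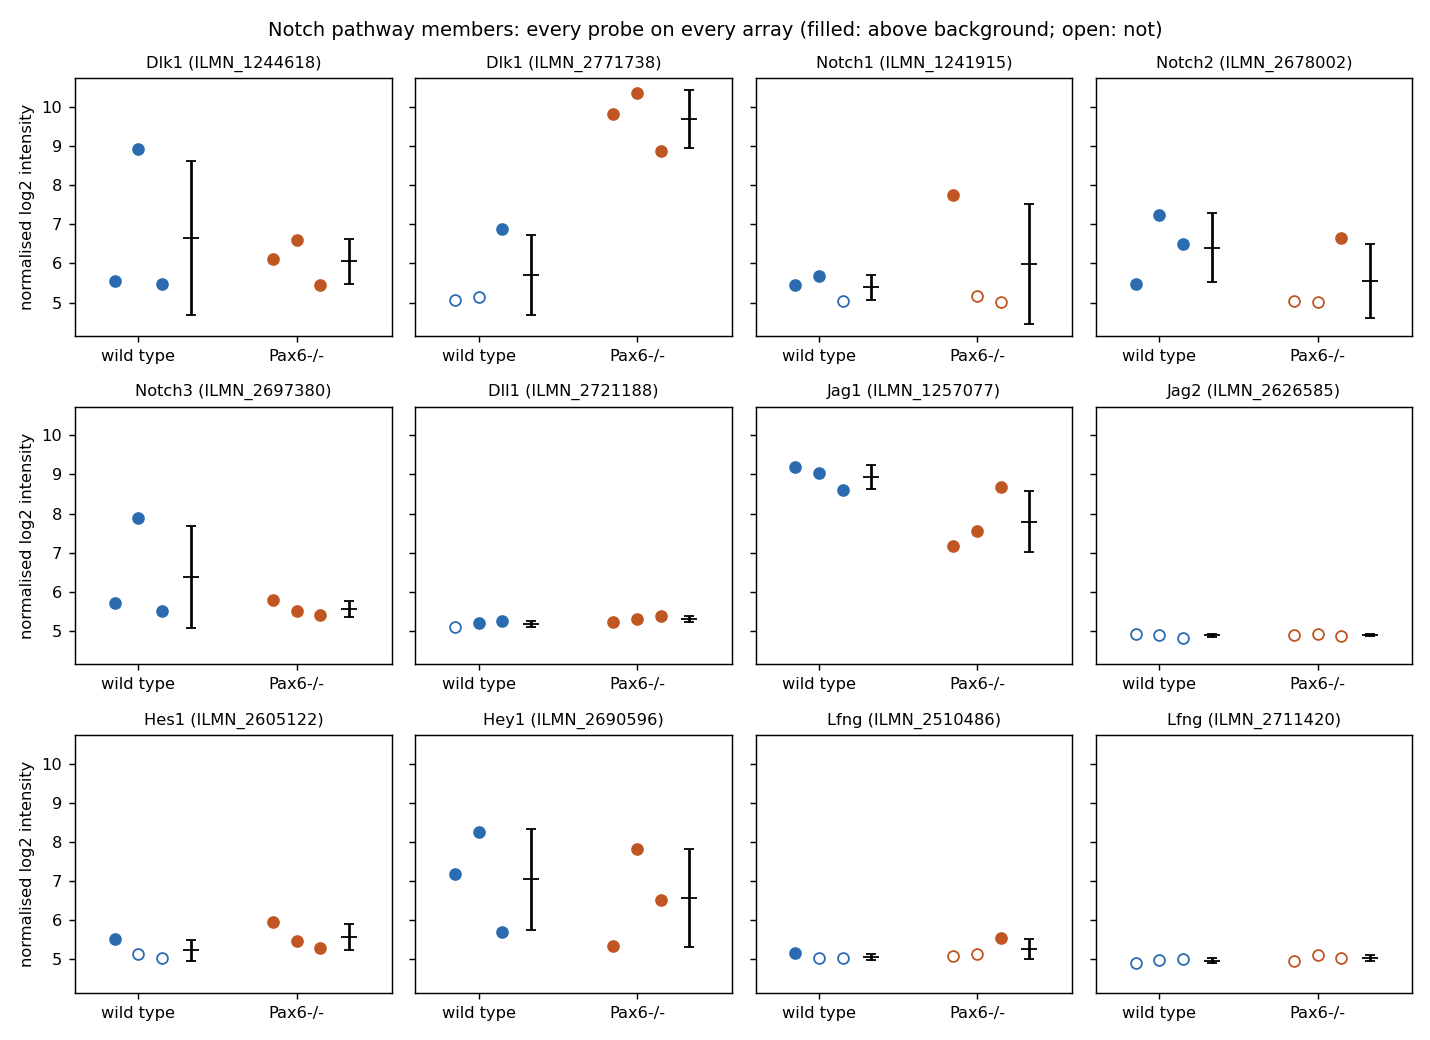
Normalised log2 intensity (vertical axis) of each of the 12 probes on the 3 wild-type (blue) and 3 Pax6-/- (orange) arrays, replicates 1 to 3 from left to right, filled where above background, with the mean and SD at the right of each group. The Dlk1 probe ILMN_2771738 is the 1 panel in which the genotypes do not overlap, with Pax6-/- from 8.88 to 10.35 and wild type from 5.07 to 6.87.

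Dlk1 gave the largest difference of the family on one of its probes and a small one of the opposite sign on the other. On probe ILMN_2771738 the wild-type arrays read 5.07, 5.14 and 6.87 for embryos 1, 2 and 3. The Pax6-/- arrays read 9.81, 10.35 and 8.88. Every Pax6-/- value lay above every wild-type value, an order that 7.88% of all probes tested share, and wild-type embryos 1 and 2 were not above background. The probe was tested because of its Pax6-/- signal, so its change depends on the level that background takes in the wild type. The change was 3.99 ± 0.63 (SE), with a 95% interval of 2.44 to 5.53, and 3.05 without background correction. It did not pass after adjustment over all probes (limma adjusted p = 0.126, or 0.134 in the fit with 1 probe per gene). Leaving out any single array kept the change between 3.65 and 4.59.

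The other Dlk1 probe, ILMN_1244618, was above background on all 6 arrays. Its wild-type arrays read 5.54, 8.91 and 5.46, and its Pax6-/- arrays 6.11, 6.59 and 5.46. Wild-type embryo 2 stood 10.9-fold above the lowest wild-type array, and the other 5 arrays lay between 5.46 and 6.59 across both genotypes. The change was -0.59 ± 0.99 (limma adjusted p = 0.891), and without wild-type embryo 2 it was 0.53. On the deposited linear scale its beads gave 609 ± 24 (bead standard error, 25 beads) on wild-type embryo 2 and 133 ± 5 (39 beads) on Pax6-/- embryo 2. For ILMN_2771738 the same embryos gave 72.7 ± 2.5 (42 beads) and 1372 ± 36 (50 beads). Bead error describes the reading of 1 array and not the spread between embryos. In embryos 1 the readings were 105 (wild type) and 109.8 (Pax6-/-) for ILMN_1244618, and 71.6 and 831 for ILMN_2771738.

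**Figure D3:**
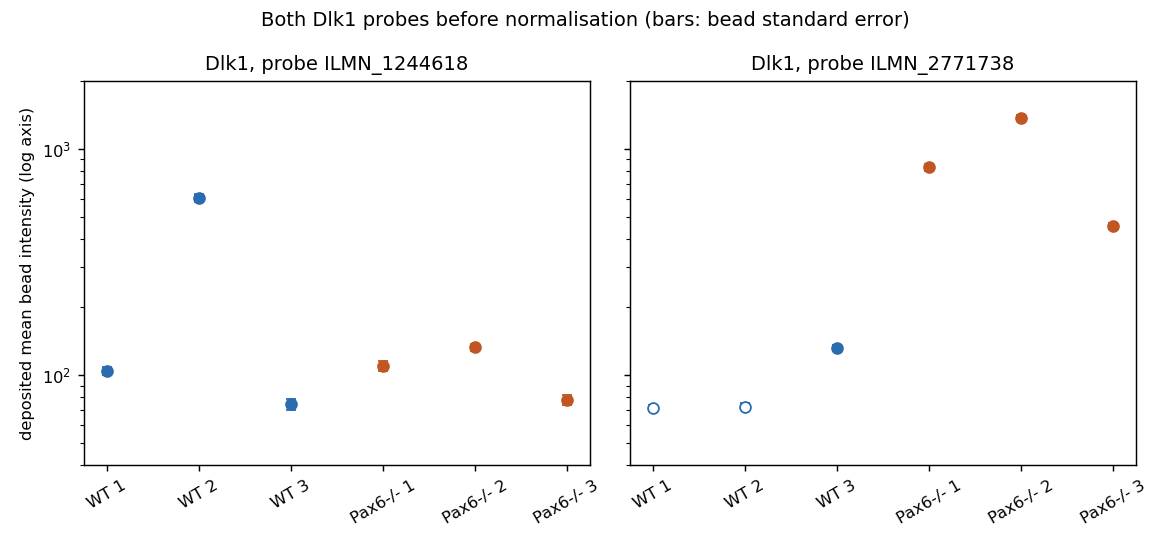
Deposited mean bead intensity (log axis) of the Dlk1 probes ILMN_1244618 (left) and ILMN_2771738 (right) on each array, with bead standard errors, open where not above background. Wild-type embryo 2 is high on the left probe (609) and low on the right one (72.7), and the 3 Pax6-/- arrays are high on the right probe, from 458 to 1372.

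Both probes carry the same gene name in the platform annotation, and their log2 changes lay 4.57 apart. That was the largest gap of all 1912 genes with exactly 2 tested probes, whose median gap was 0.599. Crybb3 was next at 4.05. Opposite signs were not rare on these arrays, at 42.6% of the 1912 genes, and at 40.5% of 970 genes whose probes were both above background on all 6 arrays. The opposite signs for Dlk1 rest on wild-type embryo 2: without it the changes of the probes were 0.53 and 3.70, both positive and still far apart.

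**Figure D4:**
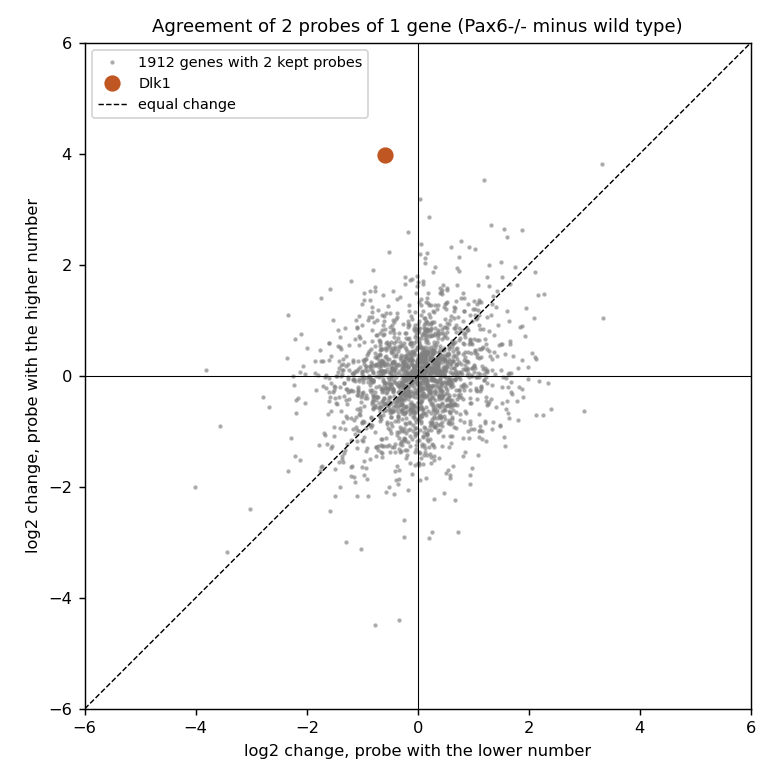
Log2 change (Pax6-/- minus wild type) of the 2 tested probes of each of 1912 genes, one probe on the horizontal axis and the other on the vertical axis. Dlk1 (orange) lies at -0.59 and 3.99, the farthest point from the dashed line of equal change.

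The sums of several marker lists for other tissues were also higher on the Pax6-/- arrays. The surface ectoderm sum was higher as well, at 4644 to 5217 in wild-type embryos and 5463 to 7228 in Pax6-/- embryos. Its genes did not move together: of 10 tested, 5 had positive and 5 negative changes. The sum takes in Tfap2b, whose gene-level probe had a change of 1.62 from a wild-type level of 9.73. Epcam had -0.80, and both were named after their values were seen. No tested gene of the surface ectoderm, red blood cell, optic cup and neuroectoderm, endothelium or neuron lists passed (limma). Of 9 tested lens placode genes, 3 passed as lower in Pax6-/-, against 0.0580% of all genes. They were Maf, Prox1 and Crybb3 (limma adjusted p 0.0021, 0.021 and 0.025), and the other tested Crybb3 probe had -0.35, with overlap. All 9 lay wholly below the wild type, as did 6.81% of all genes. Maf was tested through its wild-type signal, with 0 Pax6-/- arrays above background. The summed intensity of 6 tested red blood cell genes (of 6 with a probe) ran from 458 to 3133 in wild-type embryos and from 3790 to 5697 in Pax6-/- embryos. For optic cup and neuroectoderm, 7 of 10 genes were tested, with sums of 874 to 1237 and 1546 to 2115, and Hes5 and Vax2 were above background on no array. Of the 7, 5 had positive and 2 negative changes (Sfrp1 -0.63 and Mitf -0.32). The sums take in Zic1, with a change of 2.52 from a wild-type level of 6.98, and these genes were named after their values were seen. For endothelium, 5 of 10 were tested, with 386 to 568 and 628 to 817, and Tie1 was on none. Of the 5, 3 lay wholly above the wild type (8.52% of all genes) and 1 wholly below it (6.81% of all genes). The genes above were Cldn5, Kdr and Emcn, with changes of 2.21, 0.44 and 0.39 (1.57 on the other tested Emcn probe). The gene below was Egfl7, with changes of -1.34 and -1.31 on its tested probes. These genes were named after their values were seen. The mesenchyme and neural crest list, with 8 of 12 genes tested, overlapped in its sums, at 2078 to 2753 and 1679 to 2956, and Foxc1 and Sox10 were on none. The sums take in Pdgfra, whose gene-level probe had a change of -3.82 from a wild-type level of 10.39 (0.11 on its other probe). By contrast, 7 of the 8 tested genes had positive changes (7721 of all 13805 genes), with a median of 0.61 (0.07 over all genes). Wholly above the wild type lay 3 (Twist2, Prrx2 and Col5a1, at 1.82, 2.09 and 1.46), as did 8.52% of all genes. Twist2 was above background on 0 wild-type and 3 Pax6-/- arrays, so it was tested through its Pax6-/- signal. None of the 8 passed (limma), and the 4 genes named from this list were chosen after their values were seen. Neuron markers (3 of 6 tested) summed to 215 to 263 and 274 to 335, and the 1 tested macrophage gene of 4 to 36.0 to 466 and 32.1 to 307. Among Pax6-/- embryos the order 2, 1, 3 from high to low was the same for ILMN_2771738, the red blood cell sums (5697, 5294 and 3790) and the mesenchyme sums (2956, 2050 and 1679). The other lists had other orders: 3, 1, 2 for endothelium, 1, 2, 3 for surface ectoderm and 1, 3, 2 for the macrophage gene. For optic cup and neuroectoderm, neurons and lens placode the order was 3, 2, 1. Among wild-type embryos, embryo 3 was highest on ILMN_2771738 and in the mesenchyme sum (2753), and embryo 1 in the red blood cell sum (3133). The part of these tissues in the Dlk1 values was not tested.

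Dlk1 lies in a cluster of imprinted genes that ends with Dio3, a thyroid hormone deiodinase gene. Of 5 genes listed for the cluster 3 had a probe and 2 were tested. Dio3 read 5.07, 4.86 and 5.60 in the wild type and 7.18, 7.96 and 5.94 in Pax6-/-. It lay wholly above the wild type, as did 8.52% of all genes. It was above background on 1 wild-type and 3 Pax6-/- arrays, so it was tested through its Pax6-/- signal. Its change of 1.85 ± 0.55 did not pass (limma adjusted p = 0.369). Pax6-/- embryo 2 was highest and embryo 3 lowest on Dio3, as on ILMN_2771738. The noncoding RNA gene Rian, the other tested gene and named after its values were seen, stood at 5.67 ± 0.52 (SD) and 5.88 ± 0.57, with a change of 0.21 ± 0.42. Rtl1, a retrotransposon-derived gene of the cluster, was above background on 1 Pax6-/- array and was not tested.

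Of 11 tested imprinted genes elsewhere in the genome, none passed (limma). At an unadjusted p of 0.05, 2 were higher and 1 lower, 3 of 11 against 8.99% of all genes. The median change of the 11 was 0.17, against 0.07 over all genes. Igf2, a fetal growth factor, read 10.73, 10.94 and 11.22 and then 11.68, 11.76 and 11.68, a change of 0.74 ± 0.23 (adjusted p = 0.390). The zinc finger gene Plagl1 had 1.35 ± 0.44 (adjusted p = 0.426), and Mest had -1.48 ± 0.56 (adjusted p = 0.513). Igf2 and Plagl1 lay wholly above the wild type, as did 8.52% of all genes, and Mest overlapped.

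Among the Jagged and Delta ligands, Jag1 was the one above background on all 6 arrays and was lower in Pax6-/- on average without passing. Its single probe read 9.18, 9.03 and 8.60 on wild-type embryos 1 to 3. The Pax6-/- arrays read 7.16, 7.56 and 8.67. Pax6-/- embryos 1 and 2 lay below all wild-type values, and embryo 3 lay above wild-type embryo 3. The means were 8.94 ± 0.30 (SD, n = 3) and 7.79 ± 0.78 (SD, n = 3). The change was -1.14 ± 0.45 with a 95% interval of -2.24 to -0.05 (limma unadjusted p = 0.0433, adjusted p = 0.534). Without Pax6-/- embryo 3 it was -1.58, and without Pax6-/- embryo 1 it was -0.82.

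Dll1 and Jag2 gave little or no signal. Dll1, a Delta ligand, gave signal above background in 2 wild-type and all 3 Pax6-/- embryos, with deposited intensities of only 66.2 to 76.8. Its levels were 5.18 ± 0.08 (SD, n = 3) and 5.30 ± 0.08 (SD, n = 3), with a 95% interval of the change from -0.40 to 0.65. The lowest value called above background was 5.10 to 5.26 on the 6 arrays, close to every Dll1 value. Jag2, the second Jagged ligand, was above background on no array, at deposited intensities of 45.4 to 59.0, and was not tested.

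For each of the receptors the SD within one of the genotypes exceeded the difference between the genotypes. Notch1 read 5.46, 5.67 and 5.04 in the wild type and 7.75, 5.18 and 5.01 in Pax6-/-. Wild-type embryos 1 and 2 and, among Pax6-/- embryos, embryo 1 alone gave signal above background. The change was 0.59 ± 0.77 (95% interval -1.29 to 2.47), and without Pax6-/- embryo 1 it was -0.30.

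Notch2 was above background in all 3 wild-type embryos, at 5.48, 7.23 and 6.49. Of the Pax6-/- embryos only the third was above background, at 6.65, and embryos 1 and 2 read 5.03 and 5.00. The groups overlap through that one embryo. The change was -0.84 ± 0.64, with a 95% interval of -2.41 to 0.73 (limma adjusted p = 0.774).

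Notch3, a receptor gene that is also a target of Notch signalling in vascular smooth muscle, was above background on every array. It read 5.72, 7.87 and 5.52 in the wild type and 5.80, 5.50 and 5.40 in Pax6-/-. Wild-type embryo 2 was 5.11-fold above the lowest wild-type array and set the mean. The change was -0.81 ± 0.66 with all arrays (95% interval -2.41 to 0.80) and -0.05 without wild-type embryo 2. Notch2 likewise went to -0.41 without that embryo. Of the 9 tested probes of the family, 5 had their highest wild-type value in embryo 2 (Notch1, Notch2, Notch3, Hey1 and the Dlk1 probe ILMN_1244618), against 31.8% of all probes tested.

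Neither target gene of the family passed. Hes1 was dim, at 5.52, 5.14 and 5.03 in the wild type and 5.95, 5.47 and 5.29 in Pax6-/-. It was above background on 1 wild-type and all 3 Pax6-/- arrays, and its values overlapped. The change was 0.34 ± 0.29 (95% interval -0.37 to 1.05, limma adjusted p = 0.796).

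Hey1 spread widely in both genotypes. Wild-type embryos read 7.18, 8.25 and 5.70, and Pax6-/- embryos 5.33, 7.83 and 6.52, all above background. The highest array exceeded the lowest 5.64-fold within Pax6-/- alone. The change was -0.48 ± 0.87, and its 95% interval of -2.61 to 1.65 spans changes in either direction.

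Lfng was at or near background. Its probe ILMN_2510486 was above background on wild-type embryo 1 and Pax6-/- embryo 3, at deposited intensities of 79.1 and 81.3, and ILMN_2711420 on no array. Over both probes and all arrays the intensities ran from 56.8 to 81.3, and neither probe was tested.

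Promoter sequence was looked at for the core letters of the Rbpj binding motif, TGGGAA, on both strands. RefSeq windows (GRCm38.p6, 250 bases before to 50 after the gene start) were matched by symbol for 8 of the 10 genes, in 9 windows, and those of Hes1 and Hey1 were not used here. Dlk1 and Jag1 are shown as the members with an unadjusted p under 0.05, and Lfng as the 1 gene of the 8 whose window holds the letters. Capitals mark TGGGAA or its reverse complement, and each sequence runs 5′ to 3′ on the gene's strand.
Dlk1, chr12:109452573-109452872 (plus strand): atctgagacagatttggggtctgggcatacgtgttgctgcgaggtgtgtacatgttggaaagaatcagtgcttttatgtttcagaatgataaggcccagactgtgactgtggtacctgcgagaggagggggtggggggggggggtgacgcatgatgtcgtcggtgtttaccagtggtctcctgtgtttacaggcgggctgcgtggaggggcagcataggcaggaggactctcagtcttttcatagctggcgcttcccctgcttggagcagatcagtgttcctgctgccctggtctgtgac
Jag1, chr2:137116471-137116770 (minus strand): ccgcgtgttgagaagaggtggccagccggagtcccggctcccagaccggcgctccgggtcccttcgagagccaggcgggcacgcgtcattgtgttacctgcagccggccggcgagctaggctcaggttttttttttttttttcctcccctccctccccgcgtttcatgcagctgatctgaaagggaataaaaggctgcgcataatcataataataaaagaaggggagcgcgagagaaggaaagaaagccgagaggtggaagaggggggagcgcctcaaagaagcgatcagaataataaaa
Lfng, chr5:140607091-140607390 (plus strand): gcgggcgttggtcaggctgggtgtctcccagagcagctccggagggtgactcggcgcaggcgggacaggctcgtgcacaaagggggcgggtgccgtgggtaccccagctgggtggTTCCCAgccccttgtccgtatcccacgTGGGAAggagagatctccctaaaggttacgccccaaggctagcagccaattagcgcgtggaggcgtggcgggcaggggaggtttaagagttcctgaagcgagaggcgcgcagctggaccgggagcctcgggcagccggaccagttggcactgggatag
In the Lfng window, read on the gene's strand, TGGGAA begins 108 bases before the start, and its reverse complement TTCCCA begins 135 bases before the start. Of all 32851 windows, 25.6% hold the letters on either strand, against 1 of the 8 genes here. The Dlk1 window holds 9 CpG pairs and the Jag1 window 22, against a median of 7 over all windows. A match is a run of letters, and no binding was measured in these samples.

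No other gene of the pathway passed either. Of 47 other genes, listed by role, 41 had a named probe and 27 were tested. None passed over all genes (limma), 1 was lower at an unadjusted p of 0.05, and 15 had positive and 12 negative changes. Their median change was 0.04 against 0.07 over all 13805. Of the 27, 2 were without overlap above the wild type and 2 below it, where 8.52% of all genes lie wholly above, 6.81% wholly below and 15.3% on either side. Another 14 genes were not tested, 7 of them above background on no array: Dll3, Dll4, Mfap5, Hes5, Hes7, Hey2 and Heyl.

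**Figure D5:**
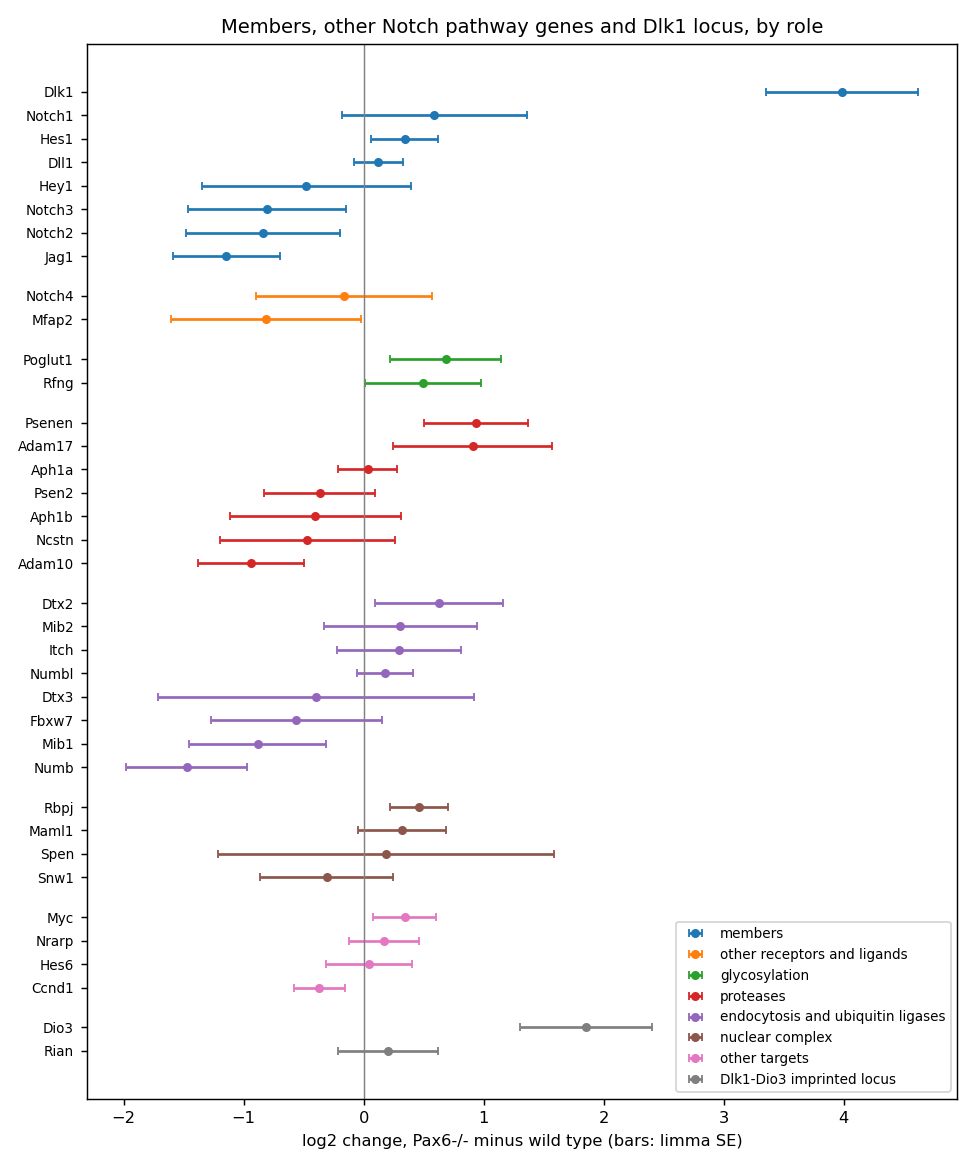
Log2 change with limma's SE (horizontal axis) of the 8 tested members, 27 other pathway genes and 2 genes of the Dlk1 to Dio3 cluster, coloured by role, from the fit with 1 probe per gene. Dlk1 at 3.99 stands apart from the other genes, which lie between -1.47 and 1.85. That point is probe ILMN_2771738, and the other tested Dlk1 probe, at -0.59, is not shown.

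Numb, an adaptor that restrains Notch in the receiving cell, was the gene at an unadjusted p of 0.05. It read 8.45, 7.88 and 7.99 in the wild type and 6.96, 5.58 and 7.36 in Pax6-/-. The change of -1.47 ± 0.51 did not pass (limma adjusted p = 0.465), and its 3 tested probes had changes from -1.47 to -0.16. On the brightest probe of each gene, Rbpj, Psenen and Ccnd1 were the other genes without overlap, and Rbpj and Psenen were chosen for mention after their values were seen. Rbpj, the DNA-binding partner of Notch, stood at 7.32 ± 0.10 (SD, n = 3) and 7.78 ± 0.28 (SD, n = 3). The change of 0.46 ± 0.24 did not pass (limma adjusted p = 0.663), and the other tested Rbpj probe had 0.10, with overlap. Psenen, a gamma-secretase subunit, stood at 7.56 ± 0.36 and 8.50 ± 0.73.

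Among the target genes outside the family, Ccnd1, which encodes cyclin D1 and answers to many signals besides Notch, was measured by several probes. All 5 of its tested probes had negative changes, from -1.95 to -0.37. On its brightest probe, wild-type embryos read 12.34, 12.45 and 12.38, and Pax6-/- embryos 11.98, 11.88 and 12.20, without overlap (change -0.37 ± 0.21, limma adjusted p = 0.699). Hes6, a bHLH gene that opposes Hes1, stood at 10.36 ± 0.57 (SD, n = 3) and 10.41 ± 0.28 (SD, n = 3) on the 1 of its probes above background.

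Genes for cleaving and modifying the receptors gave no call. Adam17, a protease that cleaves cell surface proteins, stood at 9.40 ± 1.32 (SD, n = 3) and 10.31 ± 0.20 (SD, n = 3), a change of 0.91, and its other tested probe had -1.01. Aph1a, a gamma-secretase subunit, had 5 tested probes that disagreed, with changes from -0.94 to 1.71 and 0.03 ± 0.25 on the brightest. On 2 of them, ILMN_2588759 (1.54) and ILMN_2709412 (1.71), every Pax6-/- array lay above every wild-type array (limma adjusted p 0.413 and 0.241). That order is shared by 7.88% of all probes tested. Among sugar-adding enzymes, Poglut1, which glucosylates Notch, had 0.68 ± 0.47 and the fringe gene Rfng 0.49 ± 0.48. The receptor gene Notch4, known from endothelium, had -0.16 ± 0.73, and Mfap2, a microfibril protein reported to bind Jagged ligands and Notch1, had -0.81 ± 0.79 (-0.08 on its other probe). The coactivator gene Maml1 had 0.32 ± 0.37, and Snw1, another nuclear cofactor, -0.31 ± 0.55. Proneural bHLH genes, which Hes factors repress, were rarely above background: 5 of 6 had a probe, 0 were tested, and Atoh1 and Atoh7 were above background on no array.

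Genes whose pattern over the 6 arrays was most like a member were listed by Pearson correlation, as a description only. For Dlk1 (ILMN_2771738) they were Ehd2, Bdh2 and Nr2f2 (0.995, 0.995 and 0.994). For Jag1 they were Cdk8, Snrpa1 and Rida (0.999, 0.998 and 0.991). For Notch1 they were Entpd6, Zfp94 and Inava (0.991, 0.984 and 0.984), and for Hes1 Simc1, Tsg101 and Washc1 (0.985, 0.983 and 0.981). All arrays lay on 1 slide. Over 9195 named genes the median correlation of a gene with its best partner was 0.991.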

How the data were processed

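RNA of 6 embryos was read on Illumina bead arrays on 1 slide. Sample titles gave the genotype and the embryo number. The deposited table holds, per the file headers, mean bead intensity per probe (linear), its bead standard error, bead counts and a detection p-value. It came from GenomeStudio, per the submitters' processing notes, with a version not given in the sources used here. The authors' second deposited table of processed intensity is linear, reaches below 0, and served only as an alternative. No per-sample column was left unmapped (0).

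Probes were named by the platform annotation, and symbols were updated by gene identifier through RefSeq (29921 matched, 55 did not). Of 46632 probes, 29976 had 1 symbol, 10 several and 16646 none. With limma 3.58.1 (R 4.3.3), neqc was run (normexp background from the detection p-values, offset 16, quantile normalisation, log2), which shrinks changes of dim probes. Probes above background (p under 0.05) on at least 3 of 6 arrays were kept, 17751 in all. For gene-level values the probe with the highest mean was used. Genotypes were compared with lmFit and eBayes without covariates, and p-values were Benjamini-Hochberg adjusted over all probes or genes. An exact permutation test of 3 against 3 cannot go below 0.1. Intervals are 95% from the fit. The fit was tested on simulated data.

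The members, lists and naming rule were chosen with earlier results of these data known. All members are named. From each other list, genes past adjusted p 0.05, else up to 4 at unadjusted p under 0.05, else the 2 brightest are named. Marker lists are given as sums, with some of their genes named after their values were seen. Alternatives were median scaling, cyclic loess, no background correction, offset 50, no filter, a filter on all 6 arrays, the authors' values, each array left out, a replicate block and, for genes, the mean of all kept probes. The labels describe each sample as 1 embryo.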

Additional observations from a re-analysis of the deposited data

How the results depend on the processing

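No alternative brought a member, another Notch pathway gene or an imprinted gene past an adjusted p of 0.05: the counts were 0 in each fit, against 2 tested member genes at an unadjusted p of 0.05 as reported. The Dlk1 probe ILMN_2771738 kept its direction in all 13 alternatives that could test it, with changes of 3.05 to 4.59 and adjusted p of 0.120 to 0.420. The filter on all 6 arrays removed it. Jag1 kept its direction in 14 of 14, with changes of -1.58 to -0.82 and adjusted p of 0.284 to 0.873. Leaving out 1 array gave -1.17 to 0.53 for Dlk1 ILMN_1244618, -0.30 to 1.08 for Notch1 and -1.16 to 0.14 for Hey1. Signs turned in 4 cases: without wild-type embryo 2, Dlk1 ILMN_1244618 had 0.53 and Hey1 0.12, and without Pax6-/- embryo 1, Notch1 had -0.30 and Hey1 0.14. Notch3 shrank to -0.05 without wild-type embryo 2. The cause was not tested.

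Calls over the whole array were unstable. Against 4 probes and 12 genes as reported, median scaling gave 8 probes (0 higher, 8 lower) and 16 genes (0 higher, 16 lower, where 4 were higher and 8 lower as reported), cyclic loess 11 genes (1 higher, 10 lower), no background correction 2 probes and 2 genes, offset 50 gave 6 genes (1 higher, 5 lower), no filter 11 probes and 3 genes, the filter on all 6 arrays 0 and 0 (968 and 802 at an unadjusted p of 0.05), and the authors' processed values 1 and 1. Leaving out 1 array gave 0 to 2 probes and 0 to 2 genes. Median scaling moved the median change of all probes from 0.05 to -0.24, and relative to it Jag1 (-1.52) and the Dlk1 probe (3.82) kept their direction.

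Embryos with the same replicate number showed no shared deviation over all tested probes: same-numbered deviations correlated at -0.00043, -0.0025 and -0.0098. In the array labels, same-numbered embryos carry consecutive letters after the slide number: A and B, C and D, and E and F. These correlations cannot tell whether same-numbered embryos were paired in some other way. With the replicate block limma called 0 probes and 0 genes (1525 and 1190 at an unadjusted p of 0.05), and the Dlk1 probe had an adjusted p of 0.420. Of the 12 member probes, 4 were above background on all 6 arrays, and for the others signal over background limits what can be compared.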
